A study of Arabidopsis thaliana with 39 samples.

Results

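The genes described here are 44 nuclear genes of Arabidopsis thaliana that encode antenna proteins, subunits of both photosystems, the small subunit of Rubisco and Rubisco activase. They were chosen by a list of locus identifiers, not by a cutoff on a value, but with earlier results of these data known. They make up 44 of the 33602 genes in the tables of the heat series. All 44 were found in every table and all passed edgeR's filter on low counts. They fall into 14 LHCB genes (the antenna of photosystem II), 4 LHCA genes (the antenna of photosystem I), 12 genes of photosystem I, 9 genes of photosystem II and 5 Rubisco genes. Those that the results turn on are LHCB1.1 (AT1G29920), LHCB1.3 (AT1G29930), LHCB1.5 (AT2G34420), LHCB2.3 (AT3G27690), LHCB4.3 (AT2G40100), PSAH2 (AT1G52230), PSAN (AT5G64040), PSBQ1 (AT4G21280), RBCS1A (AT1G67090), RBCS2B (AT5G38420), RBCS3B (AT5G38410) and RCA (AT2G39730). The study asked what MORC ATPases do to gene expression outside RNA-directed DNA methylation, and the comparisons its design allows for these genes are heat and recovery within each genotype, morchex against WT at each time, and lug against Ler.

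RNA-seq libraries were made from Col-0 (WT) and from morchex, which carries the alleles morc1-2, morc2-1 and morc4-1 together with morc5-1, morc6-3 and morc7-1 and thereby lacks the functional MORC genes. Plants were sampled before heat (T0, 0 h), after a brief heat treatment (T30, 0.5 h) and after recovery at normal temperature (T48, 48 h). WT had 3 libraries at each time, and morchex had 3 at T0, 2 at T30 and 2 at T48. A second set held 3 libraries of the ecotype Ler and 3 of lug, a mutant of the co-repressor gene LEUNIG in the Ler background. ChIP-seq peak lists of FLAG-tagged TPL and LUG, both transcriptional co-repressors, were available for WT and for morchex, with 1 library each. Plants sampled without heat at 0.5 h or 48 h were not part of the data, so heat or recovery and the passage of time cannot be told apart.

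Total expected counts per library lay between 8606374 and 15342615 in WT, between 12752836 and 25054384 in morchex and between 11411580 and 15862563 in Ler and lug. The labels give floral tissue as the source, but 5 of 9 floral organ identity genes (AP1, AP3, SEP2, CRC and STK) did not reach 1 TPM in any of the 22 libraries, nor did 10 of 11 tapetum and anther genes or 4 of 6 pollen genes. The summed floral identity genes ranged from 5.1 to 99.3 TPM, with the highest sums in lug (32.6 to 99.3 TPM against 9.81 to 32.8 in Ler). HSP101, a heat shock chaperone, rose from 1.99 to 3.30 TPM in WT at T0 to between 833 and 1477 at T30 and lay between 2.29 and 2.83 at T48, and the morchex libraries followed the same course. Among the targeted genes, MORC1 lay between 4.62 and 8.09 TPM in WT and between 1.41 and 2.86 in morchex over the 3 times, MORC2 (1.03 to 5.74 and 0.26 to 1.2), MORC6 (1.62 to 3.74 and 0.43 to 1.29) and MORC7 (1.29 to 11.4 and 0.31 to 1.4) lay mostly lower in morchex, MORC4 was not lower (2.68 to 9.44 and 7.13 to 16.4) and MORC5 was at 0 in every WT library and at most at 0.36 in morchex, so that reads of the last 2 do not check the genotype. LUG itself was lower in lug (6.75 to 7.47 TPM) than in Ler (19.8 to 21.4). The labels number the samples as separate replicates but do not say whether they came from separate pools of plants, so a p-value measures the spread between these samples only.

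In plants, chlorophyll a/b-binding antenna proteins capture light and pass the energy to photosystem II and photosystem I, which drive electrons from water to ferredoxin. Rubisco then fixes carbon dioxide, and Rubisco activase removes inhibitory sugar phosphates from its active sites. The core subunits of these complexes are mostly encoded in the chloroplast, while the antenna, the peripheral subunits and the Rubisco small subunit are encoded in the nucleus, often by several near-identical copies, and respond to light, the circadian clock, development and stress.

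Reads of near-identical copies were divided between them by RSEM, and 24 of the 44 genes had a non-whole expected count in at least 1 library, 8 of them in every library. The coding sequences of the 5 LHCB1 genes were 87.0% to 96.4% identical in pairs, those of the 3 LHCB2 genes 83.7% to 91.6% and those of the 4 RBCS genes 90.4% to 97.3%. Several copies also lie side by side. LHCB1.1, LHCB1.2 and LHCB1.3 lie within 6835 bp at chr1:10472280-10479114, and RBCS1B, RBCS2B and RBCS3B lie within 8333 bp at chr5:15376988-15385320. The first 90 coding bases of neighbouring copies are shown because they let a reader see how little sequence separates genes whose values differ below. Sequences are RefSeq's, on the assembly TAIR10.1, in the direction of transcription, and capitals mark bases that differ from the first sequence of each set.
LHCB1.3: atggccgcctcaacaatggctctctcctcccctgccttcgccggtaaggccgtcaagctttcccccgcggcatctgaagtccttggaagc
LHCB1.1: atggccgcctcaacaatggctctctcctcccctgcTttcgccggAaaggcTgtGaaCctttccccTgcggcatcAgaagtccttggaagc
LHCB1.2: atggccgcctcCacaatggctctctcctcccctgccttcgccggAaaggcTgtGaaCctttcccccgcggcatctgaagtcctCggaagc
RBCS3B: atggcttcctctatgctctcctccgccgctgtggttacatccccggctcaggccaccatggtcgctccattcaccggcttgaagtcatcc
RBCS2B: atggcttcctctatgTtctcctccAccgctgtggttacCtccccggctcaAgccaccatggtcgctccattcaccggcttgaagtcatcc
RBCS1B: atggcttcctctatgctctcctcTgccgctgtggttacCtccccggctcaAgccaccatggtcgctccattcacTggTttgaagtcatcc
RBCS1A: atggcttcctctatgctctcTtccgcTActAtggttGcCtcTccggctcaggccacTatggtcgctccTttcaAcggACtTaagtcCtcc

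These stretches are protein-coding and lie in a single exon each. They run over chr1:10478071-10478160, plus strand for LHCB1.3, chr1:10475803-10475892, minus strand for LHCB1.1 and chr1:10473157-10473246, minus strand for LHCB1.2. The Rubisco stretches run over chr5:15378217-15378306, minus strand for RBCS3B, chr5:15381889-15381978, minus strand for RBCS2B, chr5:15385066-15385155, minus strand for RBCS1B and chr1:25049160-25049249, minus strand for RBCS1A. LHCB1.1 and LHCB1.2 differed from LHCB1.3 at 7 and 6 of these bases. RBCS2B and RBCS1B, both neighbours of RBCS3B, differed from it at 4 and 5 bases, and RBCS1A, on another chromosome, at 14. The level of a copy whose reads were divided therefore carries the uncertainty of that division. LHCB1.1 and RBCS3B had non-whole counts in all 22 libraries, and LHCB2.3 and LHCB4.3 in 0. The share of a copy in its family is given beside its level where the copies differ.

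The 44 genes held a large part of the message pool before heat. Their summed TPM (a level per transcript length, scaled to the same sum in each library) made up 23.9 ± 0.669% of the total in WT at T0 (SD, n = 3), 26.3 ± 0.599% in morchex at T0 (n = 3), 23.5 ± 1.47% in Ler (n = 3) and 24.1 ± 2.14% in lug (n = 3). In WT at T0 the Rubisco genes alone took 9.33%, the LHCB genes 4.95%, the photosystem I genes 4.25%, the photosystem II genes 3.64% and the LHCA genes 1.73%. Between 29 and 41 of the 44 were among the 100 genes of highest TPM in each library, and RBCS1A, a Rubisco small subunit gene, was the most abundant transcript in all 22.

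**Figure D1:**
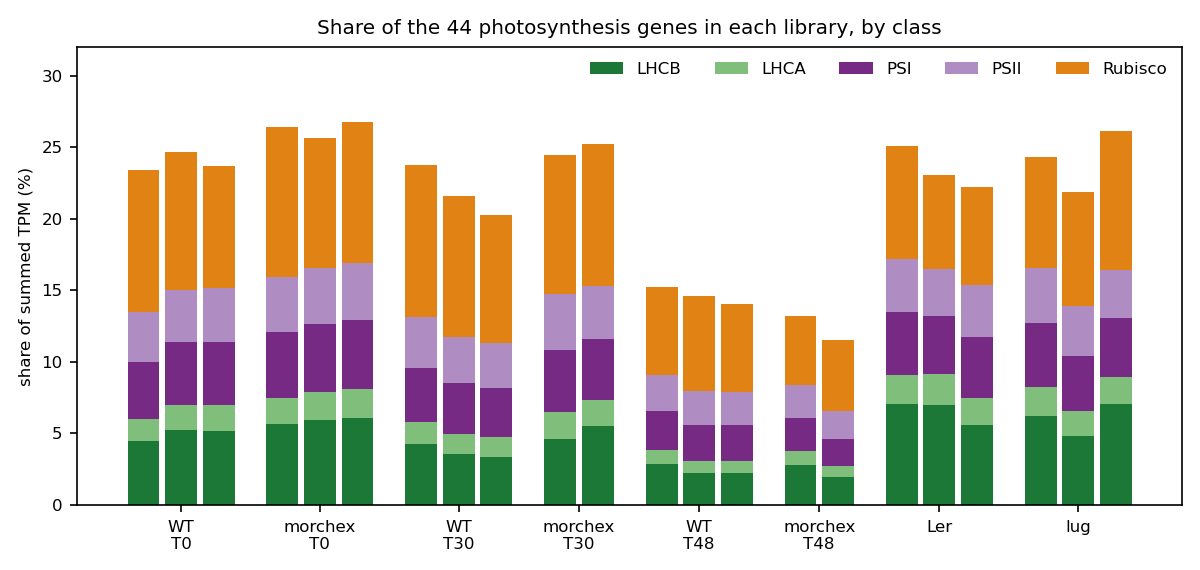
Share of the summed TPM (%, vertical axis) taken by the 44 genes in each of the 22 RNA-seq libraries (1 bar per library), stacked by class. The bars of WT and morchex at T48 average 14.6% and 12.4% and end below every bar at T0 and T30, and the Rubisco genes form the tallest segment at T0.

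Levels were uneven within the Rubisco and LHCB classes, while the 4 LHCA genes lay close together (means of 4067 to 4825 TPM in WT at T0). RBCS1A stood at 38266, 36514 and 31207 TPM in the 3 WT libraries at T0 and at 40100, 34669 and 37632 in morchex. LHCB1.3, which encodes a subunit of the major light-harvesting trimer, was the highest antenna gene at 14149, 16788 and 15298 TPM in WT and 17801, 18397 and 18767 in morchex. The 3 WT values of LHCB1.3 all lay below the 3 morchex values, although this difference did not pass the test across all genes, whereas those of RBCS1A overlapped.

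The highest photosystem II gene was PSBR, a subunit beside the oxygen-evolving complex, with 7746, 8309 and 7954 TPM in WT at T0 and 8080, 8536 and 8630 in morchex. PSAL, the photosystem I subunit that helps dock mobile antenna, was the highest of its class with 5106, 5812 and 5662 TPM in WT and 6165, 6066 and 6557 in morchex. LHCA1, an antenna protein of photosystem I, stood at 4371, 4916 and 5190 TPM in WT and 5042, 5341 and 5616 in morchex. The lowest of the 44 were LHCB4.3, a variant of the minor antenna protein CP29, with 258, 134 and 121 TPM in WT at T0, and LHCB2.3, a copy of a major trimer subunit, with 207, 239 and 283. The 3 WT libraries of LHCB4.3 varied more among themselves than those of RBCS1A.

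Between T0 and T30 most of the 44 genes moved slightly upward, and few passed with a change of over 2-fold. In WT, 11 of the 44 passed the test upward and 4 downward between T0 and T30 (edgeR's quasi-likelihood test, Benjamini-Hochberg adjusted p under 0.05 over 18827 genes), where 19.3% of all tested genes passed upward and 19.7% downward. In morchex, 6 passed upward and none downward, where 15.2% of all tested genes passed upward and 14.9% downward. The median log2 fold change of the 44 was 0.18 in each genotype, and that of all tested genes was -0.03 in WT and -0.01 in morchex. Above 0 lay 37 of the 44 in WT and 36 in morchex, beside 8932 and 9264 of the 18827 tested genes. The 7 below 0 in WT were all LHCB genes. These signs depend on the scale, as given below. Only LHCB4.3 and LHCB2.3 in WT passed with a change of over 2-fold, the limit used in the study's methods, which 6.21% of all tested genes passed upward and 7.2% downward in WT and 5.59% and 5.17% in morchex.

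By adjusted p, Rubisco activase and a Rubisco small subunit gene came first among the rises in both genotypes. RCA stood at 5180, 5120 and 5226 TPM in WT at T0 and at 6646, 6825 and 5705 at T30. In morchex it stood at 5517, 4815 and 5451 TPM at T0 and 6866 and 6533 at T30. The T30 libraries lay above the T0 libraries in both genotypes, with log2 fold changes of 0.71 ± 0.10 (SE, adjusted p = 5.41e-05) in WT and 0.64 ± 0.11 (adjusted p = 0.0004632) in morchex.

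RBCS2B stood at 13488, 14851 and 13991 TPM in WT at T0 and 18609, 16646 and 15195 at T30, with no overlap, and rose by a log2 fold change of 0.66 ± 0.10 (adjusted p = 0.000132). In morchex it stood at 15163, 12631 and 14082 TPM at T0 and 17678 and 15101 at T30, and the lower T30 library lay within the T0 range. Its log2 fold change in morchex was 0.51 ± 0.11 (adjusted p = 0.002895). PSBO2, the minor copy of the manganese-stabilising protein of the oxygen-evolving complex, stood at 1753, 1755 and 1837 TPM in WT at T0 and 2118, 2135 and 1860 at T30. All T30 values of PSBO2 in WT lay above those of T0, and the log2 fold change was 0.60 ± 0.10 in WT (adjusted p = 0.0002223) and 0.32 ± 0.11 in morchex (adjusted p = 0.03495). RBCS3B rose by 0.51 ± 0.09 in WT (adjusted p = 0.0005164). Its rise in morchex, 0.33 ± 0.10 (adjusted p = 0.02258), from 27235, 25063 and 26946 TPM to 27818 and 26662, no longer passed when morchex replicate 2 at T0 or either morchex library at T30 was left out (adjusted p between 0.0711 and 0.0917).

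The other genes that rose in WT were LHCB4.3 of the antenna, RBCS1A, the photosystem II genes PSBQ1, PSBO1 and PSBR, all of the water-splitting side, and the photosystem I genes PSAE2 and PSAK. In morchex the rises comprised RCA, RBCS2B, RBCS3B, PSBO2, PSBR and PSAG, of which the first 5 also rose in WT. The count in morchex was 3 without replicate 1 or 2 at T0 or without replicate 1 at T30. LHCB4.3 stood at 258, 134 and 121 TPM in WT at T0 and at 295, 247 and 264 at T30, so that 1 T0 library reached the T30 range, and its log2 fold change was 1.05 ± 0.27 (adjusted p = 0.006251).

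The falls at T30 were confined, among the 44 genes in WT, to copies of LHCB1 and LHCB2, the main subunits of the major light-harvesting trimer. LHCB2.3 stood at 207, 239 and 283 TPM at T0 and 80.7, 55.8 and 67.5 at T30 in WT, with no overlap and a log2 fold change of -1.44 ± 0.35 (adjusted p = 0.004306). LHCB1.1 stood at 1972, 2033 and 2017 TPM at T0 and 1052, 706 and 714 at T30, a log2 fold change of -0.89 ± 0.23 (adjusted p = 0.006691). LHCB2.1 stood at 1007, 1157 and 1401 TPM at T0 and 611, 492 and 463 at T30, a log2 fold change of -0.78 ± 0.20 (adjusted p = 0.006494). The T30 values lay below those of T0 for each of these genes, and LHCB1.2 fell as well (-0.47 ± 0.18, adjusted p = 0.04697).

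In morchex the same genes lay lower at T30 without passing the test. With scaling to the library total all 4 passed downward (adjusted p of 0.0102 for LHCB1.1, 0.0137 for LHCB2.1, 0.0242 for LHCB1.2 and 0.0256 for LHCB2.3). On that scale 32.2% of all tested genes passed downward in morchex, and the median of all tested genes shifted by -0.29. LHCB2.3 stood at 281, 314 and 324 TPM at T0 and 114 and 162 at T30, without overlap (-0.86 ± 0.38, adjusted p = 0.1056). LHCB1.1 stood at 2653, 2541 and 2574 TPM at T0 and 1090 and 1665 at T30, also without overlap (-0.61 ± 0.26, adjusted p = 0.08673). Whether the change to T30 differed between the genotypes was tested by an interaction term, which none of the 44 passed in either direction (0% of all tested genes passed upward and 0.00531% downward), and none reached an unadjusted p under 0.05 (4.91% of all tested genes upward and 4.27% downward). DESeq2 made no call among the 44 in this contrast either.

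The copies of LHCB1 and LHCB2 took different shares of their families at T30 than at T0, a difference between copies that was not tested. In WT the pair of copies with the widest gap was LHCB1.1 and LHCB1.5, with log2 fold changes of -0.89 ± 0.23 and 0.20 ± 0.22, the latter short of the threshold (adjusted p = 0.5047). LHCB1.5 stood at 4864, 5790 and 6527 TPM at T0 and 5744, 4625 and 4518 at T30. The share of LHCB1.1 in the LHCB1 total was 7.22 ± 0.578% at T0 and 3.98 ± 0.351% at T30 in WT (SD, n = 3), while that of LHCB1.5 was 20.5 ± 1.81% and 24.2 ± 0.742%. The share of LHCB2.3 in the LHCB2 total was 9.63 ± 0.316% at T0 and 5.77 ± 0.714% at T30. For the LHCB1.1 and LHCB2.3 shares, the T0 and T30 libraries of WT did not overlap.

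The balance of rises and falls at T30 depended on the scale. TPM and the share of a library divide by the whole of that library, while the log2 fold changes above use edgeR's TMM factors, which lay between 0.752 and 0.876 at T30 and between 1.01 and 1.06 at T0. With scaling to the library total alone, the median of all tested genes shifted by -0.38 in WT and -0.29 in morchex. On that scale 3 of the 44 rose in WT (RCA, LHCB4.3 and RBCS2B) and 15 fell, where 7.6% of all genes rose and 44% fell, and in morchex 1 rose (RCA) and 6 fell (LHCB1.1, LHCB1.2, LHCB2.1, LHCB2.3, LHCB3 and PSAH2, where 7.38% of all genes rose and 32.2% fell). Of the 15 genes called in WT with TMM factors, 11 kept their sign, while PSAK (-0.14), PSBR (-0.124), PSBO1 (-0.0703) and PSAE2 (-0.0147) lay below 0 without passing. The median of the 44 minus that of all genes was 0.21 on both scales in WT and 0.19 on both in morchex. The rises of RCA, RBCS2B and LHCB4.3 and the falls of LHCB1.1, LHCB1.2, LHCB2.1 and LHCB2.3 in WT passed on both scales.

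**Figure D2:**
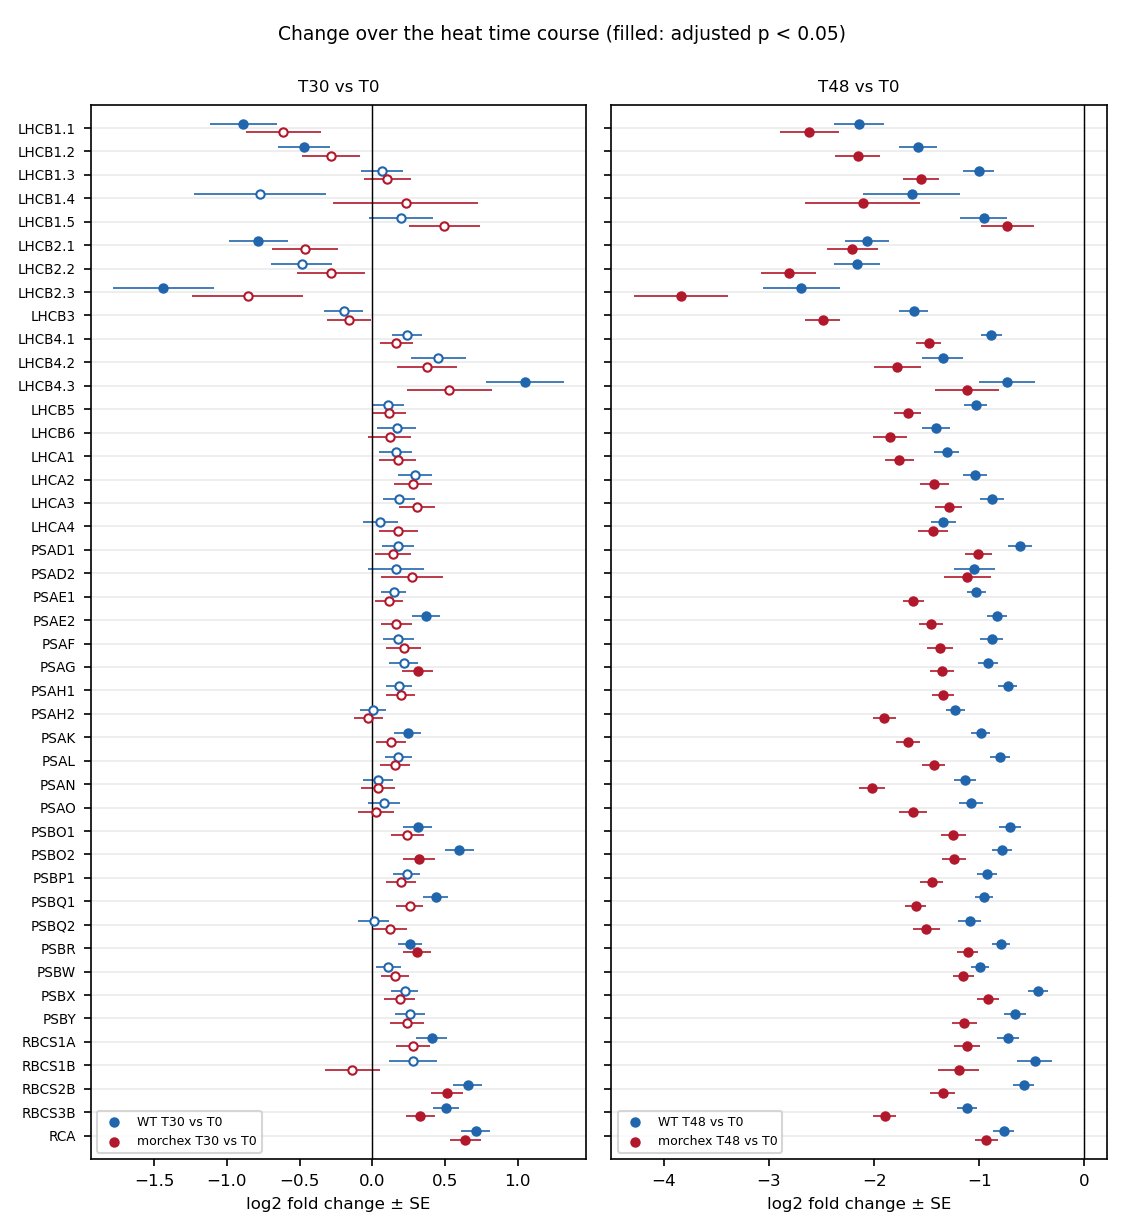
log2 fold change with its standard error (horizontal axis) of each of the 44 genes from T0 to T30 (left) and from T0 to T48 (right) in WT (blue) and morchex (red). Filled points passed at an adjusted p under 0.05. At T30, 37 blue and 36 red points lie right of 0, among them RCA and LHCB4.3, and LHCB2.3 lies to the left. At T48 all points lie left of 0 and most red points lie left of the blue ones.

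Promoter sequence is shown for 5 genes that moved in different directions at T30, LHCB1.1 and LHCB2.3, which fell in WT, and LHCB4.3, RBCS2B and RCA, which rose. Each is the 250 bases before the gene start in RefSeq (TAIR10.1), which may be the farthest annotated start, written in the direction of transcription. Capitals mark the letters of the G-box, CACGTG, on either strand. They also mark the I-box, GATAAG, on either strand. A site known for the clock factor CCA1 was searched as AAAAATCT on either strand. The TATA box was searched as TATAAA on the given strand only. The G-box and the I-box are known from light-regulated promoters.
LHCB1.1: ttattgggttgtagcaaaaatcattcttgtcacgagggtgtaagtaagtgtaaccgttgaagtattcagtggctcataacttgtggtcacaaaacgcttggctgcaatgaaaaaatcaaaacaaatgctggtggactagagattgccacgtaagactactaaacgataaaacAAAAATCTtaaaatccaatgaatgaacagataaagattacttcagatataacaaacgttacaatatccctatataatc
LHCB2.3: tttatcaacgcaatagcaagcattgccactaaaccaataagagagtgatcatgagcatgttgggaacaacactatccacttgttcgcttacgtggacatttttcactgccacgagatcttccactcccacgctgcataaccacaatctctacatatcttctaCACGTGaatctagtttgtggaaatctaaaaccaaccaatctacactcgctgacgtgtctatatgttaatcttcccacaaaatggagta
LHCB4.3: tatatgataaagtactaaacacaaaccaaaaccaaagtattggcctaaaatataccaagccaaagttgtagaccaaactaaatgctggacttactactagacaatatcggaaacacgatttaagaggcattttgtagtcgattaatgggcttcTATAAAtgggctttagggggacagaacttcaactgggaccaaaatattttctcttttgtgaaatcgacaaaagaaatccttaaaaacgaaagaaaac
RBCS2B: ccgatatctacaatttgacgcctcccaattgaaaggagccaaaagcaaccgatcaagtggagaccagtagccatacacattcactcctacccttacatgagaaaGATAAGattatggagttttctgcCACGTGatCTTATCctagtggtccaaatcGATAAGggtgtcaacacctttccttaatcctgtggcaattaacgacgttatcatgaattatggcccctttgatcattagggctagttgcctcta
RCA: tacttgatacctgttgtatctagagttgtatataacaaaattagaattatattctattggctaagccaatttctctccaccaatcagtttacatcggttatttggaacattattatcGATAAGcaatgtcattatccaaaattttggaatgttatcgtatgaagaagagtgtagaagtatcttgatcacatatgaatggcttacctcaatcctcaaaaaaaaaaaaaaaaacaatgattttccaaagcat

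The windows are chr1:10475970-10476219, minus strand for LHCB1.1, chr3:10255656-10255905, plus strand for LHCB2.3, chr2:16745378-16745627, plus strand for LHCB4.3, chr5:15382072-15382321, minus strand for RBCS2B and chr2:16573693-16573942, minus strand for RCA. The RBCS2B window held a G-box beside I-boxes on both strands, the RCA window an I-box, the LHCB2.3 window a G-box, the LHCB1.1 window a CCA1 site and the LHCB4.3 window a TATA box. Over all 44 genes, the G-box was found in 9 windows (20.5%, against 6.49% of 27443 promoters of the same length) and the I-box in 11 (25%, against 12.3%). The CCA1 site was found in 5 (11.4%, against 6.69%), the TATA box in 10 (22.7%, against 32.9%) and the heat shock element, searched as GAANNTTC on both strands, in 2 (4.55%, against 9.55%). The evening element AAATATCT, also searched on both strands, was in none of the 44 windows and in 4.79% of all promoters. These are matches of letters and were not tested as sites.

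At T48 all 44 genes had fallen in both genotypes. In WT, 44 of 44 passed downward, where 17.8% of all tested genes passed downward and 20.2% upward, and in morchex 44 of 44 passed downward, where 25.1% passed downward and 28.3% upward. The 44 had a median log2 fold change of -0.99 in WT and -1.46 in morchex, against 0.01 and 0.03 over all tested genes. A fall of over 2-fold was reached by 21 genes in WT and by 41 in morchex, where 4.3% and 12.4% of all tested genes reached it. The share of the 44 genes in the summed TPM was 14.6 ± 0.621% in WT (SD, n = 3) and 12.4 ± 1.17% in morchex (n = 2), against 23.9% and 26.3% at T0. In a bulk sample, fewer green cells and less RNA per cell cannot be told apart. The summed floral identity genes lay at 9.85 to 22.5 TPM in WT at T0 and 9.59 to 11.8 at T48, and at 12.9 to 23.4 and 6.82 to 13.3 in morchex. SEP3 alone lay at 3.54 to 15.8 and 2.87 to 5.12 TPM in WT, and at 6.69 to 14.8 and 2.08 to 6.7 in morchex. Of the 3 floral identity genes that could be tested, 0 passed in WT and 2 passed downward in morchex. Whether tissue composition had a part in the fall of the 44 was not tested.

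By class median, the antenna of photosystem II fell most and the Rubisco genes least. The median log2 fold change by class was -1.5 for LHCB, -1.18 for LHCA, -0.95 for photosystem I, -0.80 for photosystem II and -0.73 for Rubisco in WT. In morchex the medians in the same order were -1.98, -1.43, -1.45, -1.24 and -1.20. LHCB2.3 had the largest fall in both genotypes, to 65.3, 34.4 and 29.3 TPM in WT and 41.3 and 12.3 in morchex, with log2 fold changes of -2.69 ± 0.36 (adjusted p = 4.815e-05) and -3.84 ± 0.45 (adjusted p = 4.553e-06). Other LHCB genes with falls of over 2 on the log2 scale in both genotypes had values of -2.16 and -2.81 for LHCB2.2, -2.14 and -2.62 for LHCB1.1 and -2.07 and -2.21 for LHCB2.1 in WT and morchex. The genes of the smallest fall were PSBX, a small membrane subunit of photosystem II (-0.44 ± 0.09 in WT), RBCS1B (-0.47 ± 0.17 in WT) and LHCB1.5 (-0.73 ± 0.25 in morchex).

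The smallest adjusted p-values at T48 belonged to genes whose libraries lay close together. PSAH2, a photosystem I subunit at the docking site of mobile antenna, stood at 2765, 2861 and 3051 TPM in WT at T0 and 1475, 1457 and 1309 at T48, a log2 fold change of -1.23 ± 0.09 (adjusted p = 3.654e-07). In morchex it stood at 3070, 3168 and 3086 TPM at T0 and 1120 and 974 at T48, a log2 fold change of -1.90 ± 0.11 (adjusted p = 9.673e-09). No T48 library of PSAH2 reached a T0 library in either genotype.

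RBCS3B stood at 26140, 24504 and 22777 TPM in WT at T0 and 12492, 13672 and 12602 at T48 (-1.12 ± 0.09, adjusted p = 8.789e-07). In morchex it stood at 27235, 25063 and 26946 TPM at T0 and 9199 and 8572 at T48 (-1.90 ± 0.11, adjusted p = 9.871e-09). PSAE1, a stromal subunit where ferredoxin docks, stood at 4037, 4273 and 4381 TPM in WT at T0 and 2482, 2367 and 2279 at T48 (-1.03 ± 0.09, adjusted p = 1.006e-06). Each of these genes was separated between T0 and T48 by more than the spread among replicates. LHCB1.4, in contrast, spread widely at T48 in WT, with 490, 85 and 230 TPM against 551, 658 and 979 at T0, and fell, with a log2 fold change of -1.65 ± 0.46 (adjusted p = 0.01126).

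RCA stood at 3349, 3442 and 3653 TPM in WT and 3606 and 3284 in morchex at T48, below the T0 values in both, with log2 fold changes of -0.77 ± 0.10 and -0.93 ± 0.11. It was thus higher than T0 at T30 and lower at T48, near the median of its class in WT (-0.73), and its T48 values in WT and morchex overlapped. RBCS1A stood at 23566, 25749 and 23822 TPM in WT and 21179 and 22165 in morchex at T48 (-0.73 ± 0.11 and -1.12 ± 0.12).

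**Figure D3:**
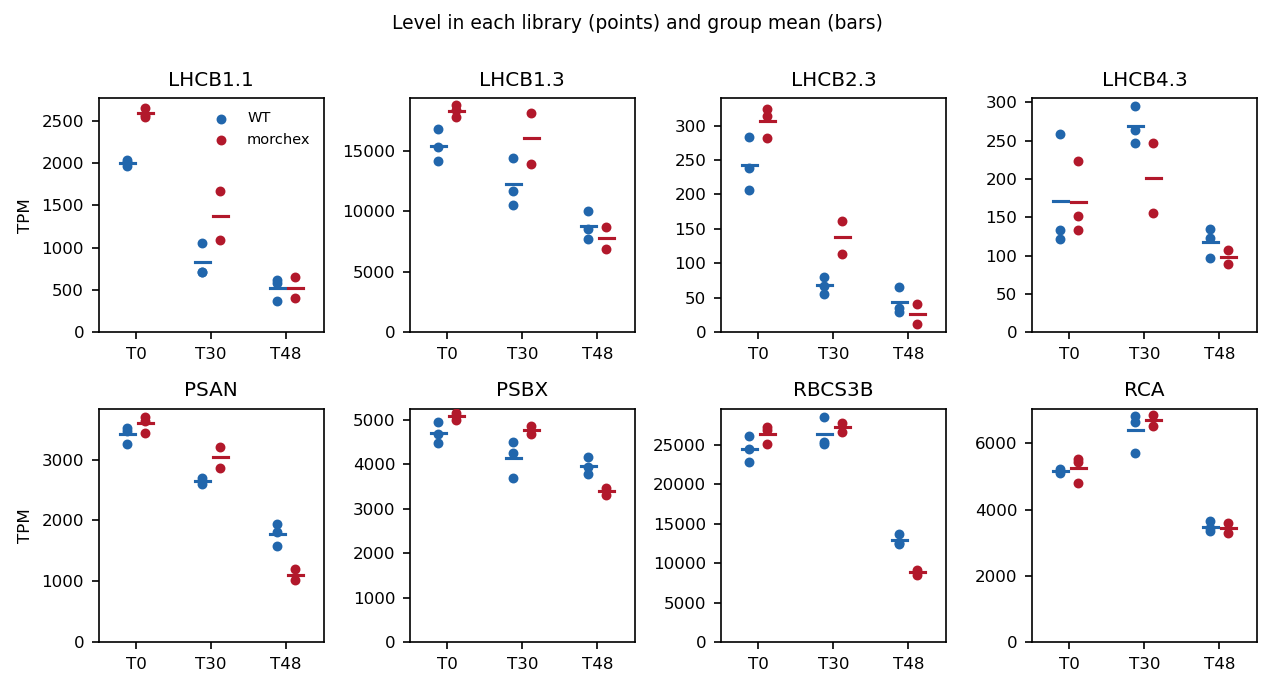
Level in TPM (vertical axis, from 0) of 8 of the 44 genes at T0, T30 and T48 in each library (points) of WT (blue) and morchex (red), with the group mean as a bar. LHCB1.1 and LHCB2.3 are lower at T30 and lower still at T48, RCA is highest at T30, and for PSAN, PSBX and RBCS3B the red points at T48 lie below all blue points.

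The morchex libraries fell further than WT at T48. Before heat, none of the 44 differed between morchex and WT (0.255% of all tested genes passed upward and 0.0584% downward), 2 reached an unadjusted p under 0.05, both higher in morchex (3.4% of all tested genes in that direction), and DESeq2 made no call among them. The median log2 difference at T0 was 0.13, and 42 of 44 differences were above 0, where 48.1% of all tested genes lay above 0. At T30 none passed (0.919% of all tested genes passed upward and 0.643% downward), 7 reached an unadjusted p under 0.05, all higher in morchex (9.9% of all tested genes in that direction), the median was 0.14, and DESeq2 made no call. At T48, 21 of the 44 were lower in morchex and none higher, where 12.5% of all tested genes passed downward and 12.6% upward. The median difference at T48 was -0.36, 40 of 44 differences were below 0, where 48.1% of all tested genes were, and none passed with over 2-fold, as 3.31% of all tested genes did downward and 2.89% upward.

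The genes lower in morchex at T48 came from most classes. They were 9 of 12 photosystem I genes, 6 of 9 photosystem II genes, 3 of 5 Rubisco genes (RBCS1B, RBCS2B and RBCS3B), 3 of 14 LHCB genes (LHCB3, LHCB4.1 and LHCB5) and none of the 4 LHCA genes. PSAN, a lumenal photosystem I subunit near the plastocyanin docking site, had the smallest adjusted p. It stood at 1810, 1936 and 1584 TPM in WT and 1197 and 1026 in morchex at T48, against 3262, 3514 and 3465 and 3435, 3638 and 3701 at T0. The groups overlapped at T0 and did not at T48, where the log2 difference was -0.83 ± 0.12 (adjusted p = 0.000341).

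RBCS2B stood at 10893, 11252 and 10279 TPM in WT and 6814 and 6971 in morchex at T48, a log2 difference of -0.80 ± 0.11 (adjusted p = 0.0003571). RBCS3B differed by -0.69 ± 0.10 (adjusted p = 0.0004806). Neither gene's groups overlapped at T48, and both overlapped at T0. LHCB3, another subunit of the major trimer, stood at 2258, 1921 and 1790 TPM in WT and 1674 and 1138 in morchex (-0.65 ± 0.16, adjusted p = 0.00825). The LHCB1 copies showed no such call, and LHCB1.5 stood at 4562, 2241 and 3341 TPM in WT and 6671 and 3824 in morchex, overlapping, with a difference of 0.49 ± 0.24 (adjusted p = 0.153).

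The difference between the genotypes in their change from T0 to T48 was tested directly. The interaction passed for 15 of the 44, all with the more negative change in morchex, where 5.1% of all tested genes passed in that direction and 3.78% in the other. The median interaction was -0.49, and 43 of 44 were below 0 (49.1% of all tested genes), the exception being LHCB1.5 at 0.22 ± 0.33 (adjusted p = 0.7087). The smallest adjusted p-values belonged to RBCS3B (-0.78 ± 0.14, adjusted p = 0.004869), PSAN (-0.89 ± 0.16, adjusted p = 0.004869) and PSBQ1 (-0.66 ± 0.13, adjusted p = 0.008052). PSBQ1, an extrinsic subunit of the oxygen-evolving complex, stood at 1671, 1765 and 1620 TPM in WT and 1289 and 1239 in morchex at T48, against 2769, 2756 and 3023 and 3079, 3017 and 3102 at T0. Its groups were apart at T48 and overlapped at T0, where the log2 difference was 0.09 (adjusted p = 0.8841).

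These counts leaned on single libraries. Without morchex replicate 3 at T48, 9 of the 44 were lower in morchex at T48 and 4 passed the interaction (PSBQ1, RBCS3B, RBCS2B and PSAN), and without WT replicate 2 at T48 13 were lower. With each library's trend with gene length removed, 7 were lower and 10 passed the interaction. The median difference of the 44 at T48 was then -0.197, against 0.0357 over all tested genes. Their median interaction was -0.389, against 0.0191. Shares of all tested genes that passed were not counted under these alternatives. PSAH2, PSBQ1, RBCS2B, RBCS3B and PSAN were lower under each of these alternatives. The morchex libraries at T48 were deeper (24374647 and 25054384 counts, against 9455267 to 11731207 in WT), and with all libraries thinned to the same total the counts were again 21 and 15.

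**Figure D4:**
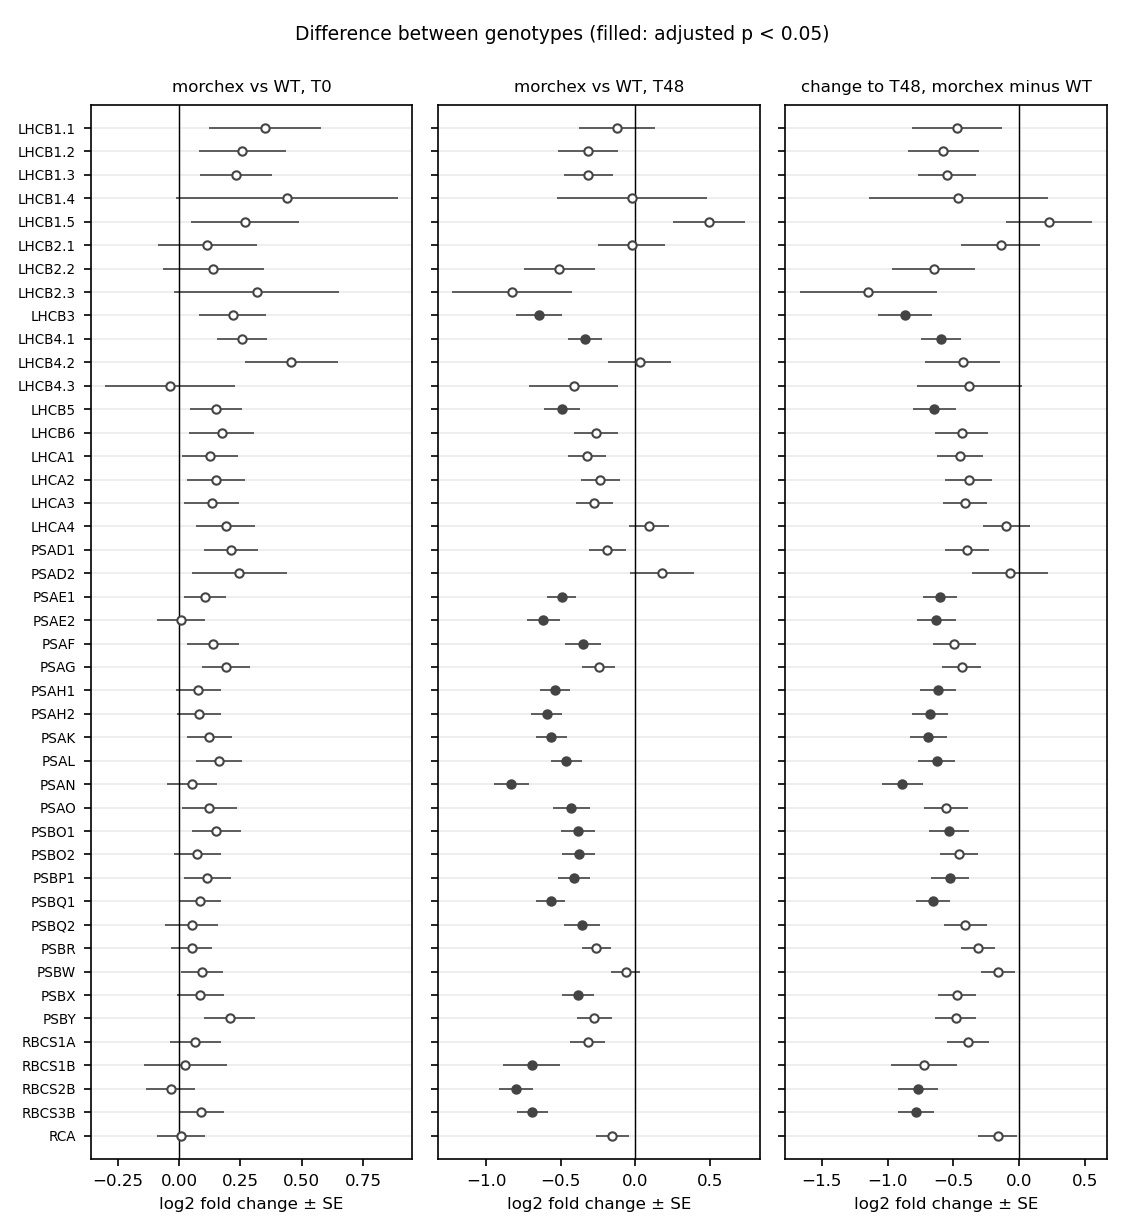
log2 difference with its standard error (horizontal axis) for each of the 44 genes between morchex and WT at T0 (left) and at T48 (middle), and the difference between morchex and WT in the change from T0 to T48 (right). Filled points passed at an adjusted p under 0.05, none at T0, 21 at T48 and 15 on the right, and all but LHCB1.5 lie left of 0 on the right.

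Shares within families are given as a description, with no test. RBCS3B took 27.8 ± 0.785% of the RBCS total in WT at T0 and 21.6 ± 0.274% at T48 (SD, n = 3), and 28.6 ± 0.932% (n = 3) and 19.6 ± 1.46% (n = 2) in morchex. RBCS1A took 40.0 ± 0.849% in WT at T0, 40.8 ± 0.569% in WT at T48 and 47.6 ± 0.346% in morchex at T48. LHCB1.5 took 20.6 ± 0.715% of the LHCB1 total in morchex at T0, 27.4 ± 3.62% at T30 and 33.8 ± 4.55% at T48, against 23.0 ± 5.08% in WT at T48. Within the LHCB2 genes the share of LHCB2.3 was 6.46 ± 1.55% in WT and 4.14 ± 1.67% in morchex at T48, which overlapped. In the fit of family sums, in which each of 28 families counted once, all 28 fell at T48 in each genotype and 12 passed the interaction. Shares of all tested rows that passed were not counted in that fit.

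**Figure D5:**
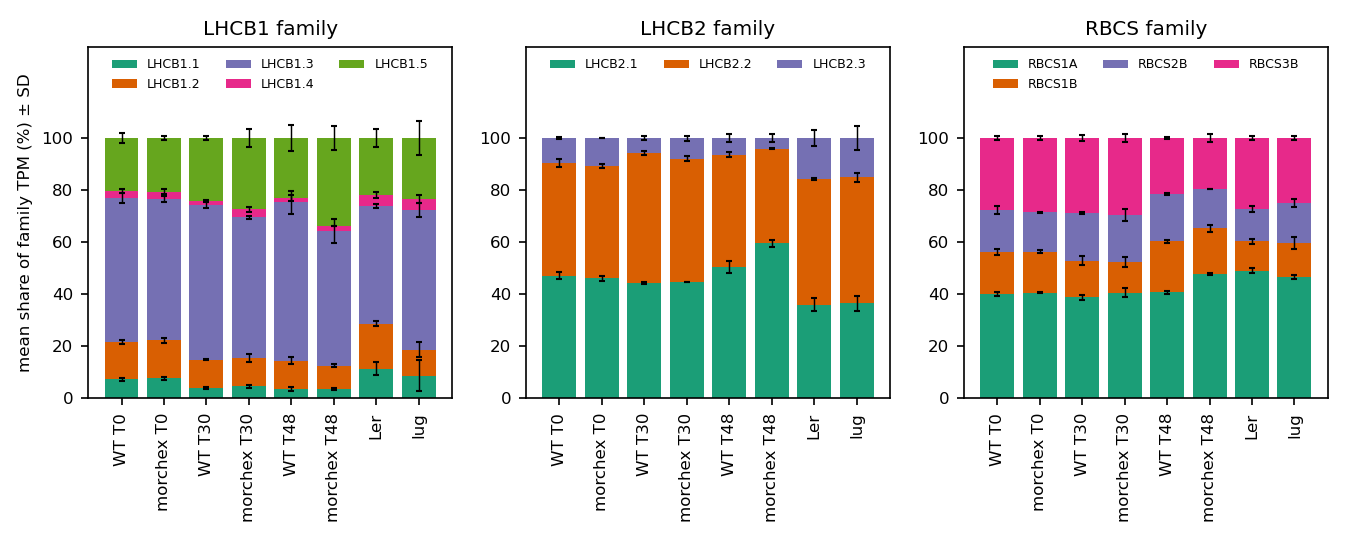
Mean share of each copy in its family's summed TPM (%, vertical axis, error bars SD) for the LHCB1, LHCB2 and RBCS families in the 8 groups. LHCB1.3 holds the largest part of LHCB1 in each group, LHCB1.1 is smaller at T30 and T48 than at T0, and RBCS3B is smaller at T48 than at T0.

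The nuclear genes of the same pathway that are not members moved with them at T48. Of 16 genes of photosynthetic electron transport, all 16 fell in WT and 15 in morchex (17.8% and 25.1% of all tested genes fell), and of 16 Calvin cycle genes 13 fell in WT and 14 in morchex, where 1 rose. Of 19 genes of chlorophyll synthesis, 16 fell in WT and 18 in morchex. PORB, a protochlorophyllide oxidoreductase, fell in WT with a log2 fold change of -1.26 ± 0.14, and CHLI2, a subunit of magnesium chelatase, changed by -1.73 ± 0.15 in morchex. GAPA2, a chloroplast glyceraldehyde-3-phosphate dehydrogenase, changed by -0.82 ± 0.10 in WT and -1.71 ± 0.12 in morchex. Of 8 genes of chlorophyll breakdown, 1 passed upward and 2 downward in WT and 1 upward and 3 downward in morchex, where 20.2% of all tested genes passed upward and 17.8% downward in WT and 28.3% and 25.1% in morchex. The gene that rose was SGR2, a STAY-GREEN gene, at 0.17 to 0.35 TPM in WT at T0 and 0.72 to 2.29 at T48.

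The same lists differed between the genotypes at T48. Lower in morchex were 14 of 16 electron transport genes, 9 of 16 Calvin cycle genes and 9 of 19 chlorophyll synthesis genes, with none higher, and 8, 3 and 4 of them passed the interaction in the same direction. Of all tested genes, 12.5% were lower and 12.6% higher, and 5.1% passed the interaction in that direction. Among 19 regulators of photosynthesis genes, 4 were lower and 1 was higher, beside the same shares of all tested genes. CGA1 and GNC encode GATA transcription factors known to promote chloroplast development. CGA1 lay between 7.9 and 12.6 TPM in WT at T48 and between 1.61 and 2.37 in morchex, a log2 difference of -2.54 ± 0.38 (adjusted p = 0.000452), and at T0 its morchex libraries also lay below those of WT (2.61 to 2.85 TPM against 4.26 to 6.08). CGA1 passed neither the comparison at T0 nor the interaction. GNC lay between 11.5 and 16.6 TPM in WT and between 7.05 and 7.88 in morchex at T48 (-1.01 ± 0.21, adjusted p = 0.00341), overlapped at T0, and passed the interaction (-0.98 ± 0.28, adjusted p = 0.041). GUN1, which acts in signalling from chloroplast to nucleus, was the regulator that was higher, at 134.6 to 146.7 TPM in morchex against 72.8 to 89.5 in WT (0.70 ± 0.12, adjusted p = 0.000917).

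At T30, 9 of the electron transport genes rose in WT and 7 in morchex, and of the Calvin cycle genes 8 and 7, with none falling, where 19.3% of all tested genes rose in WT and 15.2% in morchex. Of the 19 chlorophyll synthesis genes, 7 passed upward and 1 downward in WT, against 1 in each direction in morchex. FD1, a leaf ferredoxin, lay between 842 and 944 TPM in WT at T0 and between 2551 and 2939 at T30 (2.03 ± 0.11, adjusted p = 2.01e-09). ELIP1, an early light-induced relative of the antenna proteins, lay between 1.46 and 1.68 TPM at T0 and between 16.7 and 34.7 at T30 (4.59 ± 0.40, adjusted p = 5.48e-07). Of the regulators, 3 passed upward and 9 downward in WT, and 4 upward and 7 downward in morchex. Downward passed 19.7% of all tested genes in WT and 14.9% in morchex. GLK1, a transcription factor that promotes antenna genes, fell in WT with a log2 fold change of -1.15 ± 0.13, and PIF4, a phytochrome-interacting factor, rose by 1.04 ± 0.13. Of 12 clock genes 5 rose and 4 fell in WT, against 19.3% and 19.7% of all tested genes. No gene of these lists passed between morchex and WT at T0. None passed between lug and Ler either, a comparison whose limit is given below.

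Between lug and Ler, none of the 44 passed in either direction (0.21% of all 17643 tested rows passed upward and 0.204% downward). In simulated counts, this comparison recovered 0% of genes with a log2 change of 0.75 and 45% of those with 1.5. Changes of that size could therefore have been missed. The median log2 difference was 0.15, 36 of 44 lay above 0, where 51.3% of all tested rows did, and 1 reached an unadjusted p under 0.05, upward as 3.96% of all tested rows did. That gene was RBCS2B, at 8535, 7198 and 8547 TPM in Ler and 11863, 11600 and 12271 in lug, without overlap (0.69 ± 0.18, adjusted p = 0.3384), and DESeq2 called it alone. The highest gene, RBCS1A, stood at 35824, 29715 and 29600 TPM in Ler and 33114, 33512 and 40635 in lug. LHCB1.1 varied widely within both groups, with 5801, 6127 and 3090 TPM in Ler and 2020, 1501 and 7048 in lug.

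Peaks of TPL and LUG were placed at the starts of the 44 genes. A summit between 1000 bp upstream and 200 bp downstream of the start was found for 3 genes in the LUG list of WT (6.82%, against 3.56% of 32835 placed genes), 3 in the LUG list of morchex (6.82%, against 7.44%), 7 in the TPL list of WT (15.9%, against 14.2%) and 9 in the TPL list of morchex (20.5%, against 19.1%). The 4 lists held 2721, 5351, 10267 and 12224 peaks, and with 1 library each no test between them was possible. LHCB4.3, LHCA2 and PSAH1 had a summit in all 4 lists. None of the Rubisco genes had one in any list.

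At LHCB4.3, the gene that rose most at T30 in WT, the TPL summit lay 20 bp downstream of the start in WT (peak at chr2:16745349-16748309, TAIR10) and 59 bp downstream in morchex (chr2:16745399-16746705). Its fold enrichment over the local background was 4.04 in WT and 4.70 in morchex, with a -log10 q of 19.8 and 34.1. The LUG summits there lay 35 and 55 bp downstream, at fold enrichments of 2.71 and 3.13. At PSAH1, a copy of PSAH2, the strongest TPL summit lay 891 bp upstream in both genotypes (fold enrichment 4.04 and 5.35). PSAN had a TPL summit in WT alone (fold enrichment 1.91, -log10 q 3.11), and LHCB6, PSAE2 and PSAK had one in morchex alone, with -log10 q of 11, 4.26 and 9.64. With peaks of a -log10 q of at least 10, 2 genes were left in the TPL list of WT (4.55%, against 3.6% of all placed genes) and 6 in that of morchex (13.6%, against 7.33%). In each LUG list 2 were left (4.55%, against 0.901% in WT and 2.03% in morchex). With any base of a peak in the window counted, 16 genes had one in the TPL list of WT (36.4%, against 20.5%) and 20 in that of morchex (45.5%, against 25.6%). Each LUG list then had 3 (6.82%, against 4.2% in WT and 8.81% in morchex).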

How the data were processed

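Genes of 22 RNA-seq libraries and 4 ChIP-seq peak lists were analysed. Per the labels and methods, the authors used Bowtie2 2.1.0 for alignment to TAIR10 and RSEM for quantification. Each gene has a deposited expected count, which is not normalized, and a TPM, which is divided by transcript length and scaled to a fixed sum. The FPKM values that the authors deposited beside them were not used. Peaks were called by the authors with MACS2 2.1.1, library by library, and each deposited peak has a fold enrichment (its ratio to the local background), a -log10 q and an integer score, of which the score was not used. Groups and replicate numbers came from the labels. The members and lists were chosen with earlier results of these data known.

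After rounding, the expected counts entered edgeR 4.0.16 under R 4.3.3, with its filter by group, TMM factors, the quasi-likelihood test and Benjamini-Hochberg adjustment over all tested genes. The 16 heat libraries (6 groups) shared 1 fit and thereby 1 estimate of the spread, and Ler and lug had another. A gene passed at an adjusted p under 0.05. The 10 contrasts were T30 and T48 against T0 in each genotype, morchex against WT at each time, 2 interactions of genotype and time, and lug against Ler. The pipeline was tested on simulated counts, with 100 genes changed at each size. These were drawn at random from tested genes above a floor of expression, not from the 44 alone. From T0 to T30 in WT it recovered 53% of log2 changes of 0.75 and 92% of those of 1.5. Between lug and Ler it recovered 0% and 45%. Values per library are given for the gene of highest mean TPM in each class, for up to 3 genes that passed with the smallest adjusted p in each contrast and direction, and for the pair of copies in a family that differed most, and the other genes given per library (LHCB4.3, LHCB1.4, LHCB3 and, in Ler and lug, RBCS2B and LHCB1.1) were chosen after their values were seen. From each other list, only genes among the 3 smallest adjusted p in a contrast are named. Peaks, promoters and coding sequences were placed on RefSeq's TAIR10.1, whose nuclear chromosomes are those of TAIR10 (all 44 genes matched), with pandas 2.3.3 and Biopython 1.88. The alternatives were DESeq2 1.42.0, library totals in place of TMM, no filter, the groups compared alone, a replicate block, other thresholds, thinned counts, removal of the trend with gene length, summed families, each library left out, and 3 other settings for peaks. The ATAC-seq data and the untagged ChIP-seq control were not used here.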

Additional observations from a re-analysis of the deposited data

Results flagged for a closer look

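The change from T0 to T48 differed between morchex and WT, by the interaction term of the edgeR fit, for 15 of the 44 genes, each with the more negative change in morchex. The difference (log2, morchex minus WT, with the adjusted p) was -0.784 (0.00487) for RBCS3B and -0.771 (0.00814) for RBCS2B among the Rubisco genes. Among the antenna genes it was -0.866 (0.0204) for LHCB3, -0.645 (0.025) for LHCB5 and -0.595 (0.0293) for LHCB4.1. Among the photosystem I genes it was -0.887 (0.00487) for PSAN, -0.689 (0.00931) for PSAK, -0.677 (0.00886) for PSAH2, -0.63 (0.0181) for PSAE2, -0.628 (0.0144) for PSAL, -0.619 (0.0136) for PSAH1 and -0.6 (0.0123) for PSAE1. Among the photosystem II genes it was -0.655 (0.00805) for PSBQ1, -0.536 (0.0417) for PSBO1 and -0.527 (0.0345) for PSBP1. Without morchex replicate 3 at T48, 4 of the 15 passed. Groups of 2 or 3 libraries were not tested for a single value far from the others.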

How the results depend on the processing

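The counts of the 44 genes that passed were recomputed under each alternative. With DESeq2 24 passed at T30 in WT (20 up, 4 down), 23 passed the interaction at T48, and 1 (RBCS2B) differed between lug and Ler. With library totals in place of TMM the balance at T30 turned downward, with 18 passing in WT (3 up, 15 down) and 7 in morchex (1 up, 6 down), and 1 gene passed between morchex and WT at T30. At an unadjusted p under 0.05, 23 passed at T30 in WT (18 up, 5 down), beside 4425 up and 4618 down of 18827 genes. At T30 in morchex 13 passed (11 up, 2 down), beside 3869 up and 3854 down. Between the genotypes 2 passed at T0 and 7 at T30, all up, beside 641 and 1864 of all genes upward. The interaction at T48 passed for 33, all down, beside 2530 of all genes downward. Between lug and Ler 1 passed, upward, as did 698 of 17643 rows. With a fold of over 2 as well, 2 passed at T30 in WT, 0 at T30 in morchex, 21 at T48 in WT, and 0 between the genotypes at T48 and in the interaction there. With the trend with gene length removed, 7 differed between the genotypes at T48. Among these alternative fits, shares over all tested genes were counted only for library totals from T0 to T30. Counts from the other fits have no share to compare. The cause of these differences was not tested.

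With each library left out, the counts ranged from 11 to 18 at T30 in WT, from 3 to 5 at T30 in morchex, from 42 to 44 at T48 in each genotype, from 9 to 24 between the genotypes at T48 and from 4 to 20 in the interaction at T48, and stayed at 0 in the other 4 contrasts. Where this left 1 library in a group, that library was assumed to vary like the other groups. For the genes with the 3 smallest adjusted p in each contrast and direction, no alternative turned the direction, and 272 values kept their side of the threshold while 7 lost it, 5 of them for RBCS3B at T30 in morchex and the others for PSBO2 in WT and RBCS2B in morchex with library totals.

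Same-numbered libraries did not deviate together (correlations of -0.20 to 0.17, median -0.01, in the heat series and -0.51 to -0.01 in Ler and lug). Differently numbered libraries gave -0.20 to 0.20 in the heat series and -0.36 to 0.43 in Ler and lug. The deviations were taken from group means. In groups this small they depend on each other, so these values cannot decide whether the numbers pair the samples. With a replicate block 14 passed at T30 in WT, 5 at T30 in morchex, 44 at T48 in each genotype, 19 between the genotypes at T48 and 14 in the interaction, and 0 elsewhere.

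Of the TPL peak list of WT, 2 genes had a summit with a -log10 q of at least 10, and 16 had any peak base in the window, as did 20 in the list of morchex, against 3.6%, 20.5% and 25.6% of all placed genes. As shares of expected counts in place of TPM, the 44 genes took 19.2% in WT at T0, 21.02% in morchex at T0, 17.9% in WT at T30, 20.0% in morchex at T30, 11.6% in WT at T48, 9.34% in morchex at T48, 17.9% in Ler and 18.6% in lug.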
